A study of Mus musculus with 34 samples.

Results

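The comparison concerns T cells taken from mouse mammary tumours after doxorubicin, a DNA-damaging chemotherapy, followed by antibodies to both CTLA4 and PD1, set against T cells taken after doxorubicin followed by anti-PD1 with a control IgG. It asks what anti-CTLA4 added to anti-PD1. T cells were the barcodes with 500 or more unique molecular identifiers (UMIs, each a counted RNA molecule), 200 or more genes, under 20% mitochondrial UMIs, 2 or more UMIs of Cd3d, Cd3e and Cd3g together, and fewer than 2 UMIs each of Krt18 and Lyz2. The rule kept 2974 cells with both antibodies and 3023 with anti-PD1 alone, which is 5997 of the 46386 single-cell barcodes in the series and 5997 of the 17928 T cells of its 6 T cell libraries.

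MMTV-Wnt1 tumours, which grow in mammary tissue because a viral promoter drives the Wnt1 oncogene there, were carried as transplants in C57BL6j mice. Every mouse of both groups received doxorubicin at 4 mg/kg in 5 doses. From 48 h later, mice given both antibodies received 200 ug anti-CTLA4 and 200 ug anti-PD1, and mice given anti-PD1 alone received 200 ug anti-PD1 and 200 ug IgG, in 3 doses spaced 72 h apart. Tumours were taken 24 h after the last dose, and cells positive for CD4 or CD8 were pulled out with magnets. The other T cell groups were tumours given anti-CTLA4 with IgG or IgG alone on the same schedule (200 ug of each, or 400 ug IgG), tumours collected 48 h after doxorubicin, and untreated tumours. Each group is 1 library, and neither the number of mice behind it nor their age is given in the labels. No test of the conditions was therefore possible. Every interval below is an exact 95% interval that covers counting error in these libraries only, and none covers the difference between mice.

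PD1, encoded by Pdcd1, and CTLA4 are receptors that restrain T cells. PD1 acts mostly on T cells that already recognise antigen in a tissue, by damping signals from the antigen receptor and from CD28. CTLA4 competes with CD28 for its ligands, is carried at high density by regulatory T cells, and is induced on other T cells by activation. Regulatory T cells, marked by Foxp3, suppress other T cells, while CD8 T cells kill target cells with perforin and granzymes and release cytokines such as interferon-gamma.

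The libraries differed in more than treatment. Of barcodes passing the depth filters, 86.2% were T cells with both antibodies and 47.6% with anti-PD1 alone. Cells with no Cd3 UMI made up 8.00% and 37.1% of them. T cells held a median of 10318 UMIs and 2578.5 genes with both antibodies, against 5764 UMIs and 1803 genes with anti-PD1 alone. Shares of cells are therefore also given after every cell was thinned to 2000 UMIs, which left out 35 T cells with both antibodies and 74 with anti-PD1 alone. The defining T cell genes were present in both libraries. Cd3d stood at 10.2 and 9.61 UMIs per 10000, Cd3e at 5.17 and 4.07, and Cd3g at 13.8 and 10.9, with both antibodies given first, and these genes chose the cells. Epithelial and macrophage RNA was lower in the T cells given both antibodies. All 5 measured epithelial tumour markers and all 3 measured macrophage markers were more than 1.5-fold lower. Their summed level was 0.430 against 2.24 UMIs per 10000 over the 12 epithelial genes and 0.836 against 3.70 over the 12 macrophage genes. These lists include Krt18 and Lyz2, whose UMIs also limited which cells were kept. Not every other cell type differed. Of 4 measured dendritic cell markers 0 were higher and 0 lower, with a summed level over the list of 2.46 against 2.47. Neutrophil markers summed to 0.102 against 0.0982. Apoe, a lipid carrier made by macrophages and epithelium, stood at 0.165 UMIs per 10000 with both antibodies and 2.12 with anti-PD1 alone, while cells with no Cd3 UMI held 28.4 and 49.8. Wnt1 had no UMI in the T cells given anti-PD1 alone. The part these transcripts and the difference in depth play in any result was not tested. No doublet caller was run, so cells of very high depth or mixed type remain beyond those removed for Krt18 or Lyz2, which were 86 with both antibodies and 586 with anti-PD1 alone.

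Gated on UMIs, the CD8 share of T cells was higher, and the Foxp3-positive share lower, with both antibodies. Cells with 2 or more UMIs of Cd8a and Cd8b1 and no Cd4 UMI (the CD8 gate) made up 78.4% of T cells with both antibodies (95% interval 76.9 to 79.9%), against 57.5% with anti-PD1 alone (55.7 to 59.3%). The difference was 20.9 points (18.6 to 23.2), and 25.5 points after thinning, when the shares were 60.4% and 34.9%. Cells with a Foxp3 UMI and no Cd8a or Cd8b1 UMI (the Foxp3 gate) were 67 cells or 2.25% with both antibodies (1.75 to 2.85%), against 222 cells or 7.34% with anti-PD1 alone (6.44 to 8.33%). That gap was -5.09 points (-6.20 to -4.01), and -2.54 points after thinning, with 1.57% and 4.10%. Among cells with no Cd3 UMI, 0.362% held a Foxp3 UMI with both antibodies and 0.849% with anti-PD1 alone, at median depths of 5437 and 11909.5 UMIs. A Cd8a UMI was found in 17.0% and 3.10% of those cells. The shares are of cells pulled out by CD4 and CD8, and how evenly the magnets recovered each kind is not given in the labels.

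The same 2 gates together gave 34.8 CD8-gate cells per Foxp3-gate cell with both antibodies and 7.83 with anti-PD1 alone. Cells with a Cd4 UMI and none of Foxp3, Cd8a or Cd8b1 (the CD4 Foxp3-negative gate) made up 8.20% with both antibodies and 11.1% with anti-PD1 alone, a difference of -2.88 points (-4.39 to -1.36). Gamma delta T cells, gated on 2 or more Trdc UMIs and none of Cd4, Cd8a, Cd8b1 or Foxp3, were 7 and 9 cells. The interval of the difference, -0.36 to 0.23 points, spans 0. Over all T cells Trdc stood at 0.116 and 0.051 UMIs per 10000, a mean below the limit of 0.1 set for comparing genes. A Trdc UMI was found in 2.69% and 1.06% of T cells before thinning. Of 6 measured gamma delta and innate-like genes 2 were higher and 3 lower, where 4.67% of all genes were higher and 2.89% lower. T cells with no UMI of Cd4, Cd8a, Cd8b1 or Foxp3 made up 3.03% with both antibodies and 13.3% with anti-PD1 alone, and this gap remained after thinning, at 16.5% and 33.0%. A count of 0 in a cell does not show that it lacks the coreceptor.

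The other T cell libraries place both shares. The CD8 gate held 84.0% of T cells with anti-CTLA4, 77.5% with IgG, 62.7% at 48 h after doxorubicin and 55.7% in untreated tumours. The share with both antibodies lay between those with anti-CTLA4 and IgG, but after thinning it was the highest of the 6, at 60.4% against 57.6% with anti-CTLA4 and 55.3% with IgG. The share with anti-PD1 alone lay near that of untreated tumours, also after thinning (34.9% and 34.6%). The Foxp3 gate held 0.583% with anti-CTLA4, 4.97% with IgG, 2.89% at 48 h and 12.1% in untreated tumours. Both libraries from mice given anti-CTLA4 had a lower Foxp3 share than the other 4, although the interval with both antibodies overlapped that at 48 h. In the series' CD45-positive libraries, which have 2 per group, the CD8 share was 46.7% and 52.7% in the replicates of doxorubicin-treated tumours and 31.3% and 60.2% in those of untreated tumours. The Foxp3 share was 4.67% and 9.87% in the doxorubicin-treated pair and 11.4% and 6.30% in the untreated pair.

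**Figure D1:**
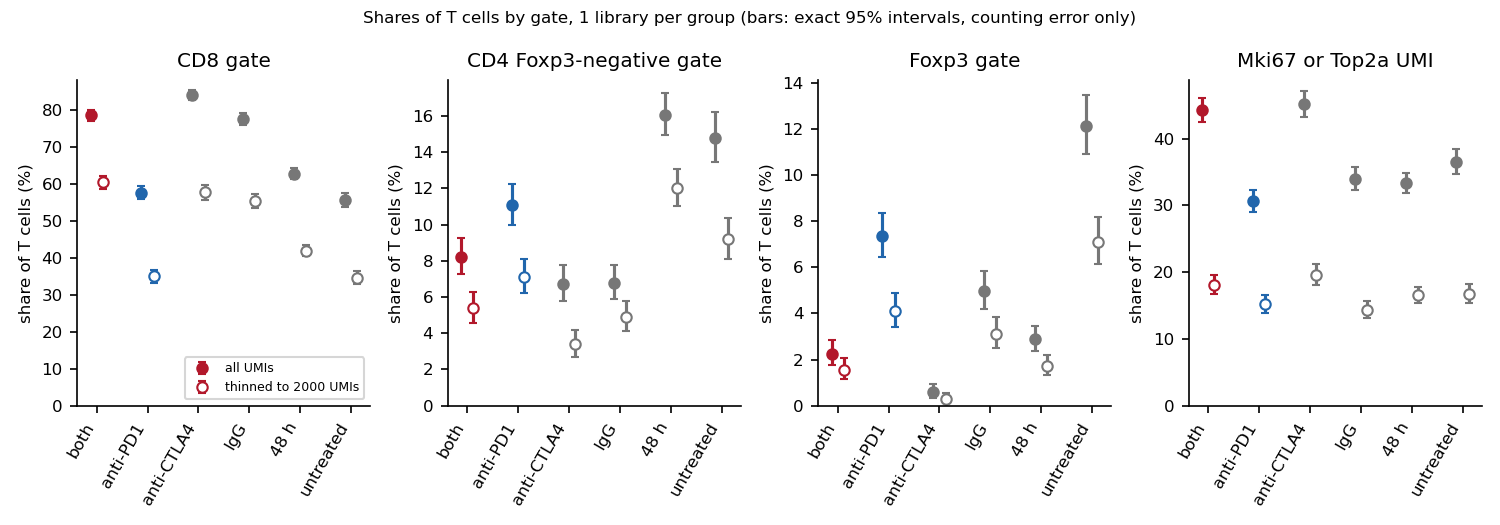
Share of T cells (%) in the CD8 gate, the CD4 Foxp3-negative gate, the Foxp3 gate and with a Mki67 or Top2a UMI, in each of the 6 T cell libraries, with all UMIs (filled points) and after thinning to 2000 UMIs (open points); bars are exact 95% intervals of counting error. With both antibodies (red) the CD8 gate held 78.4% and the Foxp3 gate 2.25% of T cells, against 57.5% and 7.34% with anti-PD1 alone (blue).

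Genes were compared as UMIs per 10000 over all T cells of a library summed. Of 6789 genes at a mean of 0.1 or more UMIs per 10000, 317 were at least 1.5-fold higher with both antibodies (4.67%) and 196 at least 1.5-fold lower (2.89%), and the median log2 ratio of both antibodies over anti-PD1 alone was 0.03. With ribosomal and mitochondrial genes left out of the totals the split was 301 higher and 343 lower. At 2-fold the counts were 31 higher and 43 lower. The replicate single-cell libraries of the series differed more than this. Among genes at 1 or more UMIs per 10000, 5.67% lay 1.5-fold or more apart between both antibodies and anti-PD1 alone, against 21.4% and 9.67% between the replicate CD45-positive libraries of doxorubicin-treated and of untreated tumours, whose T cells were far fewer (107 and 395, and 862 and 254). The size of a difference between 1 library and another of the same group is thus not known for these T cell libraries, and a single fold below should be read with that in view.

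Of 34 gene lists, those with most members higher were effector cytokines and chemokines, inhibitory receptors, killer lectin-like receptors and Th1 genes. In the effector list 10 of 13 measured members were higher and 1 lower (median log2 ratio 0.75). The summed level of its 20 genes went the other way, at 63.9 with both antibodies and 67.1 with anti-PD1 alone. That sum was 55.3 with anti-CTLA4, 75.1 with IgG, 62.2 at 48 h and 68.3 in untreated tumours. Of the inhibitory receptor and exhaustion genes 11 of 17 were higher and 0 lower (median 0.73). Of the killer lectin-like receptors 6 of 7 were higher and 1 lower (median 0.83), and of the Th1 genes 5 of 10 were higher and 0 lower (median 0.56). All 6789 genes had the median of 0.03 and the shares of 4.67% and 2.89% given above.

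**Figure D2:**
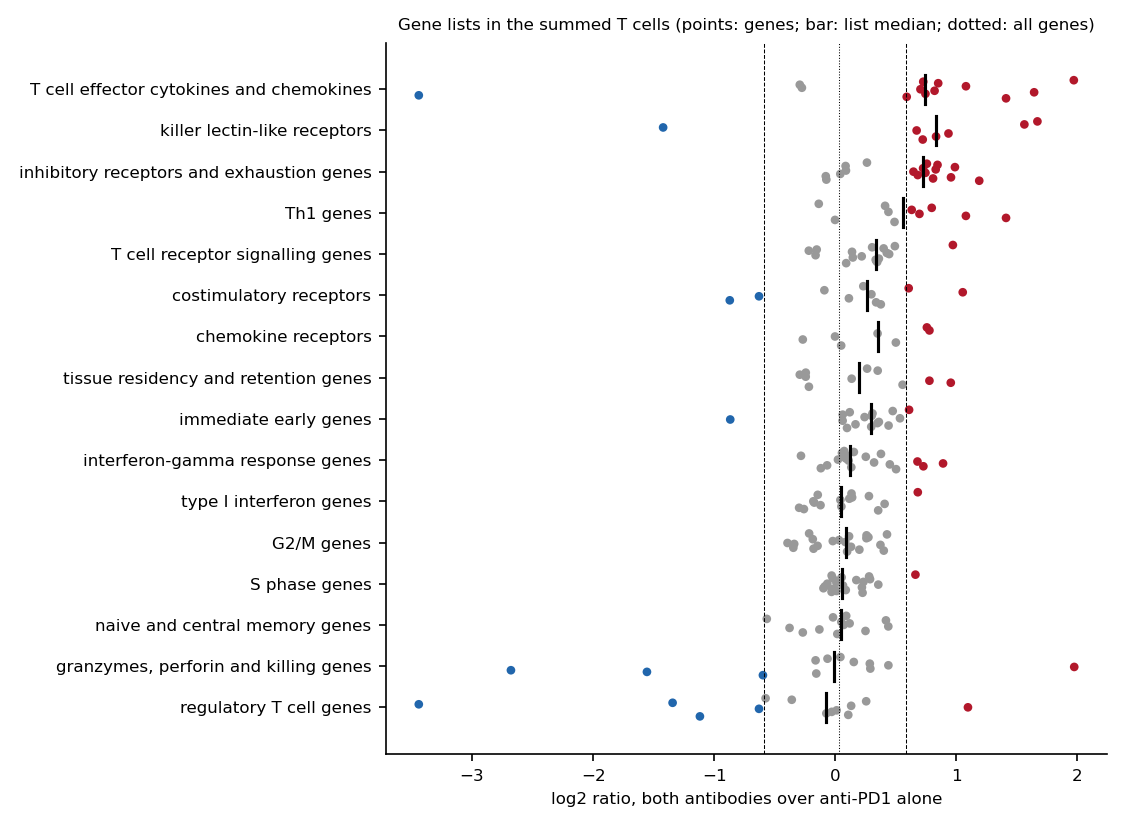
Log2 ratio of both antibodies over anti-PD1 alone (horizontal axis) for each measured gene of 16 lists in the summed T cells; red points are 1.5-fold or more higher, blue points 1.5-fold or more lower, black bars are list medians and the dotted line is the median of all genes. Effector cytokine, inhibitory receptor and killer lectin-like genes lie mostly to the right, with medians of 0.75, 0.73 and 0.83, and Il10, at -3.44, lies farthest to the left.

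Perforin and interferon-gamma had some of the highest ratios. Prf1, which encodes the pore-forming protein of killer cells, stood at 1.56 UMIs per 10000 with both antibodies and 0.397 with anti-PD1 alone, a ratio of 3.93 (3.67 to 4.22). A Prf1 UMI was found in 39.4% of T cells with both antibodies and 15.5% with anti-PD1 alone, and in 15.4% and 6.14% after thinning. In cells with no Cd3 UMI the shares were 3.26% and 0.637%. Inside the CD8 gate Prf1 stood at 1.86 and 0.507 UMIs per 10000, a ratio of 3.67 (3.40 to 3.97). In the CD4 Foxp3-negative gate it stood at 0.129 and 0.190, a ratio of 0.675 whose interval (0.417 to 1.09) spans 1. Prf1 is therefore not among the 30 genes named by size below. Ifng, which encodes interferon-gamma, stood at 3.36 UMIs per 10000 with both antibodies and 1.26 with anti-PD1 alone, a ratio of 2.66 (2.56 to 2.77), and a UMI of it was found in 63.4% and 33.4% of T cells (32.5% and 17.0% after thinning), against 9.78% and 1.74% of cells with no Cd3 UMI. Its ratio was 2.64 in the CD8 gate and 1.91 (1.70 to 2.14) in the CD4 Foxp3-negative gate.

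The promoter stretches of genes the result turns on are shown because each of these genes was over 1.5-fold higher with both antibodies than with anti-PD1 alone: the 250 bases upstream of the annotated start of Prf1 and Ifng, of Pdcd1, and of Il13, the highest of the 30 genes named by size. They were read from RefSeq on GRCm38.p6, in the direction of transcription, and chosen after the values were seen. Capitals mark matches to the RUNX letters TGTGGT on either strand, which 14.1% of 32851 promoter windows of the same length hold. AP-1 letters (TGANTCA, in 6.75% of windows) and T-box letters (GGTGTGA, in 3.33%), also searched on both strands, were not in any of the 4.
Prf1, chr10:61297586-61297835, plus strand: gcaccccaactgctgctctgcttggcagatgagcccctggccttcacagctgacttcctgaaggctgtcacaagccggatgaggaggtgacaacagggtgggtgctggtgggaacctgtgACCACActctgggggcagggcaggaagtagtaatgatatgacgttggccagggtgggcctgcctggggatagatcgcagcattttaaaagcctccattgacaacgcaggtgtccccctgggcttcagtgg
Ifng, chr10:118440796-118441045, plus strand: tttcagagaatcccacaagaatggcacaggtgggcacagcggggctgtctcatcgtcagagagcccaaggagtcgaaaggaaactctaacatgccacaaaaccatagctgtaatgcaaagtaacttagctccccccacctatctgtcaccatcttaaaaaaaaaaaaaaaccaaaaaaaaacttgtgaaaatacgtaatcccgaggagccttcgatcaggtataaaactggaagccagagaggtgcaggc
Pdcd1, chr1:94052554-94052803, minus strand: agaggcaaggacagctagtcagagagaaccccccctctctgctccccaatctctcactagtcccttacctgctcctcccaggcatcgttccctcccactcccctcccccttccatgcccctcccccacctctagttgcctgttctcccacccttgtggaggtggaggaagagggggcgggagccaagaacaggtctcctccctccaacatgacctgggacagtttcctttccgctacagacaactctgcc
Il13, chr11:53634703-53634952, minus strand: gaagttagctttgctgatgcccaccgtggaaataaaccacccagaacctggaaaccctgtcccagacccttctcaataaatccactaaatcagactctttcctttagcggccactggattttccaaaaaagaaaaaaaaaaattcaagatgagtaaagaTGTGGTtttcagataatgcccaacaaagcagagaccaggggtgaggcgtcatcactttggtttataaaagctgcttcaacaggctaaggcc
The match begins 130 bases upstream of the start in Prf1 and 91 bases upstream in Il13. These are letter matches only.

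The granzymes did not share the direction of perforin. Of the 12 measured genes of the killing list only Prf1 was 1.5-fold higher and 3 were lower (median -0.01). Over all genes 4.67% were higher and 2.89% lower. Gzma, a serine protease of killer granules, stood at 7.42 UMIs per 10000 with both antibodies and 11.2 with anti-PD1 alone, a log2 ratio of -0.60. This lies at the 1.5-fold limit, and it was -0.56 under TMM and median-of-ratios scaling and -0.52 with dividing cells left out. Gzmb stood at 3.31 and 3.69 UMIs per 10000, a log2 ratio of -0.16 that does not reach 1.5-fold. Inside the CD4 Foxp3-negative gate both were much lower with both antibodies, Gzma at 0.672 against 4.67 UMIs per 10000 and Gzmb at 0.114 against 0.864. The mean of Gzmb there is below the limit of 1 UMI per 10000 set for that gate. Gzmf stood at 0.058 and 0.369 UMIs per 10000 and Gzmc at 0.114 and 0.335. The log2 ratio of Gzmc was -1.55, and -0.62 with dividing cells left out. Gzmf was found in few cells, 1.04% of T cells with both antibodies and 3.11% with anti-PD1 alone. Gzmc went the other way in the CD4 Foxp3-negative gate, at 0.357 and 0.176 UMIs per 10000, also below the level limit of that gate. These neighbouring genes are close in sequence, and how reads shared between them were counted is not given in the sources used here. Nkg7 (19.1 and 14.1 UMIs per 10000), a granule membrane protein, and Fasl (0.676 and 0.555), the death ligand, stayed within 1.5-fold.

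Cytokine genes of several T cell types were higher. Il13, a type 2 cytokine, stood at 0.480 UMIs per 10000 with both antibodies and 0.122 with anti-PD1 alone, a ratio of 3.92 (3.46 to 4.46), in 7.33% and 2.61% of T cells. Its share in cells with no Cd3 UMI was 0.362% and 0.085%. In the CD4 Foxp3-negative gate it stood at 2.55 and 0.952 UMIs per 10000, and in the CD8 gate at 0.122 and 0.014. The mean in the CD8 gate is below the level limit of 0.1. Il5, another type 2 cytokine, was below the level limit and had 206 UMIs with both antibodies and 25 with anti-PD1 alone, and Il4 had 37 and 13. Lta, which encodes lymphotoxin alpha, stood at 0.296 and 0.095 UMIs per 10000, a ratio of 3.13 (2.70 to 3.63). Ccl1, a chemokine that binds CCR8, stood at 3.45 and 1.63 UMIs per 10000 over all T cells and at 9.87 and 5.38 in the CD4 Foxp3-negative gate. Csf2, Tnf, Tnfsf10, Tnfsf11, Ccl3 and Ccl4 were higher by log2 ratios of 0.59 to 0.85. The exceptions among the measured genes were Il10, Ccl5 and Xcl1. Il2, below the level limit and given in the last paragraph, was also lower. Il10, an anti-inflammatory cytokine, had 79 UMIs with both antibodies and 505 with anti-PD1 alone, a level of 0.020 against 0.221 UMIs per 10000 and a ratio of 0.092 (0.072 to 0.117). It was lower in all 3 gates, with log2 ratios of -2.85 in the CD8 gate, -2.81 in the CD4 Foxp3-negative gate and -2.64 in the Foxp3 gate. In the CD8 gate and the Foxp3 gate its mean lay below the level limit of the gate. Cells with no Cd3 UMI held Il10 at 0.059 and 0.145 UMIs per 10000, so in the anti-PD1 library the T cells were above them and in the library of both antibodies below. Ccl5 stood at 43.7 and 52.9 UMIs per 10000 and Xcl1 at 5.32 and 6.51, both within 1.5-fold.

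Pdcd1 itself, whose protein is the target of the antibody both groups received, was higher with both antibodies. It stood at 2.25 UMIs per 10000 with both antibodies and 0.988 with anti-PD1 alone, a ratio of 2.28 (2.18 to 2.39), and a UMI of it was found in 66.6% and 32.6% of T cells (30.8% and 14.1% after thinning), against 5.80% and 1.02% of cells with no Cd3 UMI. The level in the anti-PD1 library was close to that in untreated tumours, 0.993 UMIs per 10000, while anti-CTLA4, IgG and the 48 h library held 1.98, 1.35 and 1.43. Lag3, a receptor that binds MHC class II, stood at 2.15 and 1.11 UMIs per 10000, and Havcr2, which encodes TIM-3, at 0.505 and 0.288. Of the orphan nuclear receptors induced by antigen receptor signals, Nr4a3 stood at 2.83 and 1.43 UMIs per 10000, Nr4a2 at 5.22 and 3.15, and Nr4a1 at 2.14 and 1.20. Tox, a transcription factor of exhausted T cells, stood at 1.13 and 0.720. Entpd1, which encodes the ectonucleotidase CD39, Rgs16, Cd200r1 and Cd244a completed the 11 higher members, with log2 ratios of 0.68 to 0.85. In the CD8 gate 10 of 16 measured members were higher and 0 lower (median log2 ratio 0.82), where 6.75% of 6651 genes were higher and 2.72% lower. In the CD4 Foxp3-negative gate 4 of 9 were higher and 0 lower, where 4.14% of 1400 genes were higher and 2.64% lower.

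Ctla4 did not differ by 1.5-fold, at 2.60 UMIs per 10000 with both antibodies and 2.73 with anti-PD1 alone. Its ratio took opposite signs in the gates, however, with 2.48 and 1.82 in the CD8 gate, 2.68 and 3.45 in the CD4 Foxp3-negative gate, and 5.29 and 8.69 in the Foxp3 gate, where the ratio was 0.609 (0.549 to 0.675). With the gates weighted to the same shares in both libraries its log2 ratio was 0.08, against -0.07 as sampled. Cd160 and Cd101, both receptors of activated T cells, and Cd200 were also within 1.5-fold.

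Some genes of regulatory T cells were lower with both antibodies. Of 13 measured members of the list 4 were lower and 1 higher (median log2 ratio -0.07), where 2.89% of all genes were lower and 4.67% higher. The direction of the list median turned with the gates weighted to equal shares (0.22). In the CD8 gate 3 of 9 members were higher and 0 lower (median 0.45), where 6.75% of 6651 genes were higher and 2.72% lower. Foxp3 stood at 0.123 UMIs per 10000 with both antibodies and 0.266 with anti-PD1 alone, and Izumo1r, which encodes folate receptor 4, at 0.270 and 0.684. Tnfrsf18, which encodes GITR, stood at 1.88 and 2.90, and Il10 is described above. Nrp1, a receptor of semaphorins and VEGF, was the member that was higher, at 0.693 and 0.324, in the CD8 and CD4 Foxp3-negative gates as well as in the sum. Tnfrsf4, which encodes the costimulatory receptor OX40, stood at 1.88 and 3.43 UMIs per 10000, and Maf, a transcription factor that drives Il10 and Il4, at 0.431 and 0.970. With the gates weighted to equal shares the log2 ratio of Foxp3 was -0.28, of Maf -0.54, of Tnfrsf4 -0.40 and of Izumo1r -0.64, so of these only Izumo1r stayed past 1.5-fold. In a summed sample, fewer cells of a type and less RNA per cell cannot be told apart.

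Within the Foxp3 gate the cells of both libraries held like levels of Foxp3, the gene that chose them, at 2.08 UMIs per 10000 with both antibodies and 2.43 with anti-PD1 alone. Of 1452 genes measured there, 34 were higher (2.34%) and 45 lower (3.1%). Beside Ctla4, Maf was lower at 2.36 and 3.97 UMIs per 10000. Il10 stood at 0.184 and 1.15 (17 and 203 UMIs), a mean below the limit of 1 set for this gate. Tnfrsf4 (10.9 and 14.9), Tnfrsf18 (6.05 and 8.27), Icos (2.80 and 3.90) and Il2ra (2.89 and 3.71), all receptors of activated regulatory T cells, lay below with both antibodies by less than 1.5-fold. Ikzf2, which encodes the transcription factor Helios, stood at 8.45 and 6.17. These values rest on 67 and 222 cells.

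Killer lectin-like receptors, which are shared by natural killer cells and activated CD8 T cells, were higher as a group than with anti-PD1 alone. The summed level of the 14 genes was 10.3 UMIs per 10000 with both antibodies and 6.18 with anti-PD1 alone. It was 10.8 with anti-CTLA4, 11.1 with IgG, 7.67 at 48 h and 6.12 in untreated tumours, so the IgG library lay above that of both antibodies. With the gates weighted to equal shares the list median was 0.64, against 0.83 as sampled. Klri2 stood at 0.492 UMIs per 10000 with both antibodies and 0.154 with anti-PD1 alone (ratio 3.18, 2.84 to 3.58), and Klre1, its partner in a heterodimer, at 0.756 and 0.256 (2.96, 2.70 to 3.24). Klrd1, which encodes CD94, and its partners Klrc1 and Klrc2 stood at 4.91 and 2.97, 1.52 and 0.851, and 0.891 and 0.466. Klrk1, which encodes NKG2D, stood at 1.43 and 0.900. Klrg1, a marker of terminal effector cells, was the member that was lower, at 0.078 and 0.210, and in the CD8 gate its levels were 0.047 and 0.055. In the gate of CD8 cells 4 of 6 measured members were higher and 0 lower, where 6.75% of 6651 genes were higher and 2.72% lower. Genes of the natural killer list were not higher. Of its 4 measured genes 3 were lower and 0 higher, where 2.89% of all genes were lower and 4.67% higher. The 3 were Fcer1g, Tyrobp and Gzma, with log2 ratios of -1.45, -1.01 and -0.60. None of these is limited to natural killer cells, and Gzma lies at the 1.5-fold limit. Klrb1c, below the level limit, had 72 and 152 UMIs. The killer lectin-like receptors form a family of related sequences, and shared reads could be split between members.

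Th1 genes, which serve the interferon-gamma programme, leaned the same way against anti-PD1 alone. The summed level of the 11 genes was 11.4 UMIs per 10000 with both antibodies and 7.21 with anti-PD1 alone. With IgG it was also 11.4, with anti-CTLA4 12.1, at 48 h 8.69 and in untreated tumours 8.48. Beside Ifng, Il12rb2 (0.140 UMIs per 10000 with both antibodies and 0.066 with anti-PD1 alone), a chain of the interleukin-12 receptor, and Stat4 (1.51 and 0.932), which carries its signal, were higher. Il27ra (0.284 and 0.163) and Il18rap (0.699 and 0.451) were the other members past 1.5-fold. Tbx21, the lineage factor T-bet, stood at 0.400 and 0.285, within 1.5-fold, and Cxcr3 at 0.524 and 0.524. Of 20 measured interferon-gamma response genes, 3 were higher and 0 lower (median log2 ratio 0.12), where 4.67% of all genes were higher and 2.89% lower. In the CD8 gate 4 of 19 were higher and 0 lower (median 0.40), where 6.75% of 6651 genes were higher and 2.72% lower. With the gates weighted to equal shares the median of the list was 0.33. Over all T cells the 3 higher genes were the guanylate-binding protein genes Gbp2, Gbp6 and Gbp8. Of 15 type I interferon genes 1 was higher, Trim30a, and the median was 0.05.

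Receptors of costimulation and of tissue homing split. Cd226, which encodes the activating receptor DNAM-1, stood at 1.62 UMIs per 10000 with both antibodies and 0.782 with anti-PD1 alone, a ratio of 2.08 (1.97 to 2.19). It was higher in all 3 gates. Slamf1 was also higher (log2 ratio 0.61), Tnfrsf4 and Tnfrsf18 were lower as given above, and Cd28 (2.35 and 1.81), Icos (2.27 and 1.80), Cd27 and Tnfrsf9 were within 1.5-fold. Cd40lg, the helper signal of CD4 T cells, was below the level limit and had 402 and 95 UMIs. Cxcr6, a chemokine receptor of T cells resident in tissue, stood at 2.72 and 1.58 UMIs per 10000, Itga1, the collagen-binding integrin chain CD49a, at 0.463 and 0.239, and Cx3cr1, a receptor of effector cells, at 0.310 and 0.183. Xcr1, a receptor better known on dendritic cells, had 157 and 11 UMIs, also below the limit.

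Among the other named genes that were higher, Ifitm1, an interferon-inducible membrane protein, stood at 4.86 UMIs per 10000 with both antibodies and 1.95 with anti-PD1 alone, a ratio of 2.49 (2.41 to 2.58). Rasgrp1, which links the antigen receptor to Ras, stood at 0.429 and 0.212, and Themis, an adaptor of antigen receptor signalling, at 1.10 and 0.558. Jaml, a costimulatory adhesion molecule, stood at 1.23 and 0.606, and Abcb1b, a drug efflux pump, at 0.566 and 0.278. Hip1, Gpm6b and Atp8b4 had log2 ratios of 1.05 to 1.31. Themis was the 1 member of 17 antigen receptor signalling genes past 1.5-fold, and the median of that list was 0.34.

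The 15 genes named by size as lower include Izumo1r, Maf and Tnfrsf4, given above, and others with no single T cell role. Cirbp, a cold-inducible RNA-binding protein, stood at 0.611 UMIs per 10000 with both antibodies and 1.49 with anti-PD1 alone, a ratio of 0.411 (0.389 to 0.433). Its log2 ratio was -1.24 in the CD8 gate and -1.38 in the CD4 Foxp3-negative gate. Nrarp, a target and inhibitor of Notch signalling, stood at 0.341 and 0.672, and Gna13, a G protein alpha subunit, at 1.99 and 3.35. Sdhaf1, an assembly factor of succinate dehydrogenase, stood at 0.295 and 0.705. The snoRNA host transcripts Snhg3 and Snhg4, and Bmyc, Gle1, Fam241a, Smn1, Ing2 and Got1, had log2 ratios of -1.19 to -0.74. By the rule that named these 15 genes, 13 further genes with differences as large were left out as higher in the cells with no Cd3 UMI, against 1 among the genes that were higher.

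**Figure D3:**
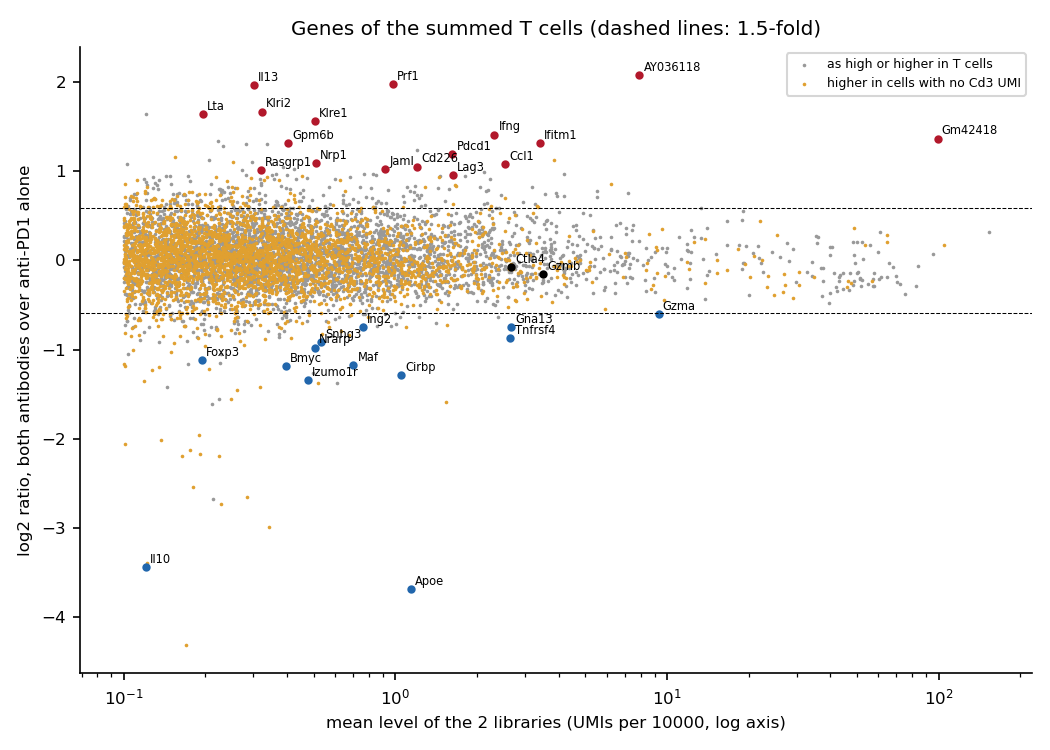
Log2 ratio of both antibodies over anti-PD1 alone against the mean level in UMIs per 10000 (log axis) for the 6789 genes of the summed T cells; orange points are genes at a higher level in cells with no Cd3 UMI of the library where the gene is higher. Prf1, Il13, Lta, Klri2 and Ifng stand out above, Il10 and Apoe below, and Gm42418, which overlaps ribosomal RNA repeats, is the most abundant gene past 1.5-fold.

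The genes were also compared inside the gates, where the mix of T cell types is narrower. The CD8 gate holds most of the UMIs on which the genes were chosen, so their direction there was nearly fixed, and their counts are descriptions. In that gate 6.75% of all genes were higher and 2.72% lower. Of the 317 higher genes 301 were measured in the CD8 gate and 265 were higher there by 1.5-fold or more. Of the 196 lower genes 176 were measured in it and 143 were lower past 1.5-fold. In the CD4 Foxp3-negative gate, which holds 244 and 335 cells, 69 of the higher genes were measured and 37 were higher past 1.5-fold, beside 4.14% of all genes. Of the lower genes 20 were measured there and 12 were lower past 1.5-fold, beside 2.64%. The 30 genes named by size had to agree in direction between these gates, so their common side is no result. Their sizes were not fixed, and Il13, for example, had a log2 ratio of 3.11 in the CD8 gate and 1.42 in the CD4 Foxp3-negative gate. In the CD8 gate, however, the mean of Il13 lay below the limit of 0.1 UMIs per 10000, so that ratio rests on few UMIs.

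**Figure D4:**
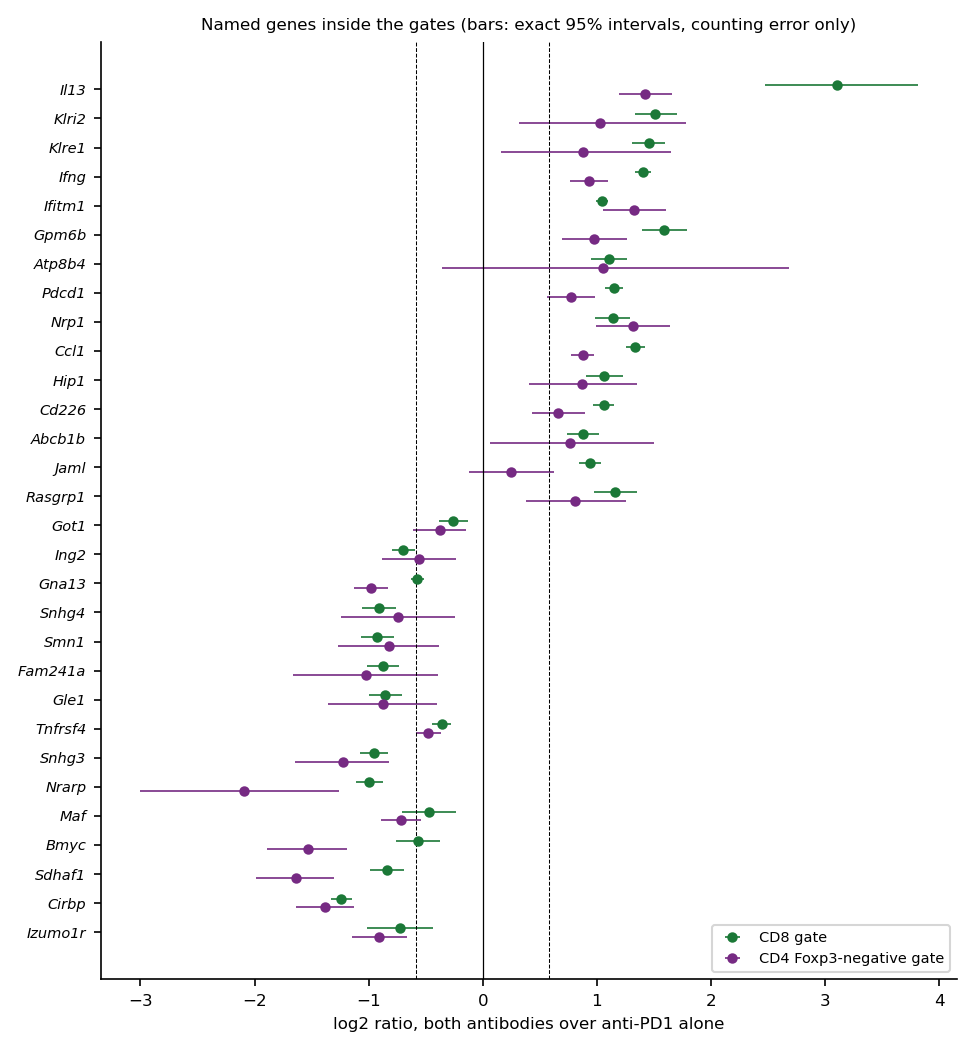
Log2 ratio of both antibodies over anti-PD1 alone in the CD8 gate (green) and the CD4 Foxp3-negative gate (purple) for the 30 genes named by size, ordered by their ratio in all T cells; bars are exact 95% intervals of counting error. Il13 is highest in the CD8 gate at 3.11, Nrarp lowest in the CD4 Foxp3-negative gate at -2.09, and Tnfrsf4, at -0.36 and -0.48, lies nearer to 0 in both gates than in the sum. Genes below the level limit of a gate are drawn too, such as Il13 in the CD8 gate.

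Over all T cells, most genes of cell division were within 1.5-fold, and their medians moved with the setting. A Mki67 or Top2a UMI was found in 44.3% of T cells with both antibodies and 30.6% with anti-PD1 alone, but in 18.1% and 15.2% after thinning, a difference of 2.88 points (0.951 to 4.80). Mki67, a nuclear protein of cycling cells, stood at 1.05 and 0.981 UMIs per 10000, a log2 ratio of 0.10 that was 0.38 after thinning and 0.36 over cells with no Krt18 and no Lyz2 UMI. Of 20 measured G2/M genes 0 were higher and 0 lower (median log2 ratio 0.09), and of 21 S phase genes 1, Hells, was higher (median 0.05). Over cells with no Krt18 and no Lyz2 UMI these medians were 0.34 and 0.20. The gates differed for G2/M genes. In the Foxp3 gate 3 of 5 measured were lower and 0 higher (median -0.65), where 2.34% of 1452 genes were higher and 3.1% lower. In the CD4 Foxp3-negative gate the 1 measured was higher (1.27), and in the CD8 gate 0 of 20 passed 1.5-fold. Of S phase genes 0 passed 1.5-fold in any of these gates. With dividing cells left out, 11 of 17 inhibitory receptor genes and 8 of 13 effector genes were higher, where 5.28% of 6646 genes were higher and 4.5% lower. In the CD8 gate without dividing cells, 7.37% of 6509 genes were higher and 3.75% lower. Without dividing cells Ccl1 had a log2 ratio of 0.46, against 1.08 with them.

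Few genes of naive cells, stress and metabolism passed 1.5-fold over all T cells, beside 4.67% of all genes higher and 2.89% lower. Of 13 genes of naive and central memory T cells 0 passed 1.5-fold (median log2 ratio 0.05), with Tcf7, the factor of stem-like T cells, at 0.394 UMIs per 10000 with both antibodies and 0.331 with anti-PD1 alone. With dividing cells left out, 3 of 15 measured genes of that list were higher and 1 lower (median 0.21). In those cells 5.28% of 6646 genes were higher and 4.5% lower. The following counts are again over all T cells. Of 15 glycolysis genes 1 was higher (median 0.18), of 12 heat shock genes 1 was lower (median 0.04), of 10 p53 targets 1 was higher (median -0.02), of 13 apoptosis regulators 2 were higher (median 0.04) and of 16 immediate early genes 1 was higher and 1 lower (median 0.30).

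Set among all 6 T cell libraries, many of the differences came with an anti-PD1 library that lay at an end of the range. Of the 317 higher genes, the library of both antibodies was the highest of the 6 in 150 (47.3%, against 11.9% of all genes tested), and the anti-PD1 library was the lowest in 188 (59.3%, against 20.1%). Of the 196 lower genes, the library of both antibodies was the lowest in 111 (56.6%, against 14.2%), and the anti-PD1 library was the highest in 135 (68.9%, against 16.5%). The higher and lower genes were chosen on 2 of these 6 libraries, so these shares are descriptions. Prf1 was higher with anti-CTLA4 (3.92 UMIs per 10000) and with IgG (2.53) than with both antibodies (1.56), and the anti-PD1 library (0.397) lay near the 48 h and untreated libraries (0.472 and 0.309). Ifng was also higher with anti-CTLA4 (3.76) and IgG (4.41) than with both antibodies (3.36), and the anti-PD1 library (1.26) lay near the 48 h and untreated ones (1.43 and 1.59). Pdcd1, Il13, Lta and Ifitm1, in contrast, were highest of the 6 with both antibodies. Il13 stood at 0.480 there, against 0.270 with anti-CTLA4 and 0.101 with IgG, and Ifitm1 at 4.86, against 3.09 and 0.891.

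**Figure D5:**
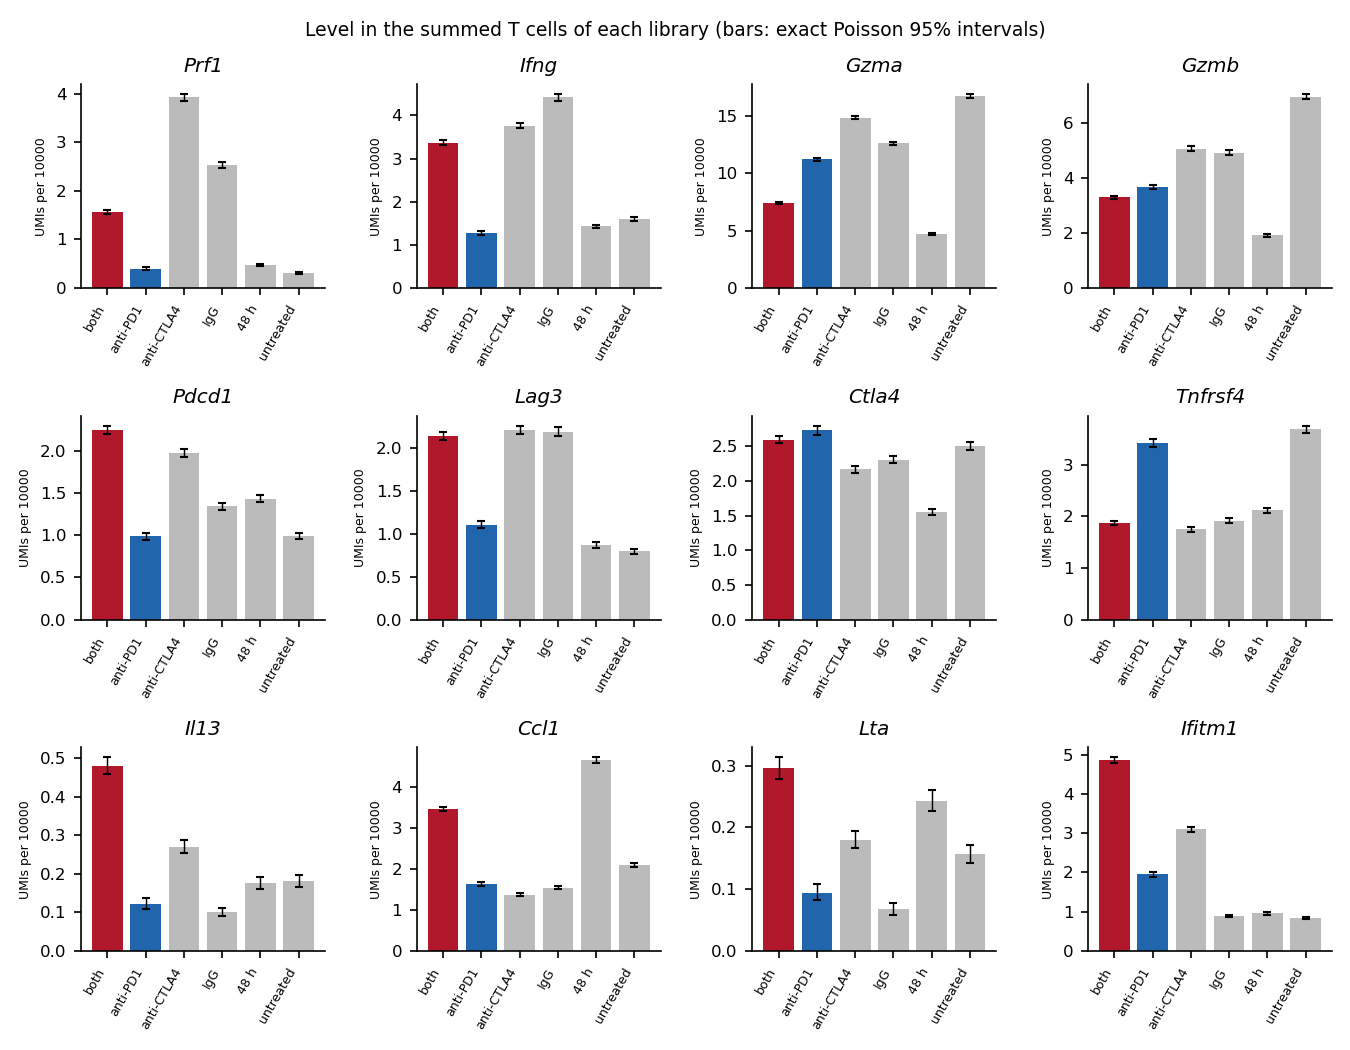
Level in UMIs per 10000 of 12 genes in the summed T cells of each of the 6 T cell libraries, 1 library per bar, with exact Poisson 95% intervals of counting error; red is both antibodies, blue anti-PD1 alone, and grey the others. Prf1 and Ifng are lower with both antibodies (1.56 and 3.36) than with IgG (2.53 and 4.41) and lower still with anti-PD1 alone (0.397 and 1.26), while Pdcd1, Il13, Lta and Ifitm1 are highest with both antibodies.

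Some abundant transcripts that are not specific to T cells also differed. Gm42418, which overlaps ribosomal RNA repeats, stood at 143 UMIs per 10000 in T cells given both antibodies and 55.5 in those given anti-PD1 alone, and AY036118, of the same locus, at 12.8 and 3.03. Their levels in cells with no Cd3 UMI were 281 and 70.9, and 10.6 and 1.76, so the difference was not particular to T cells. Lars2 stood at 5.24 and 2.40 UMIs per 10000. Their part in the other results was not tested.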

How the data were processed

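Cells were counted with a Chromium Single Cell 3' kit. Per the file headers, Cell Ranger 6.0.0 made the matrices the authors deposited, which are raw UMI counts for each gene and barcode, and per the labels the build is GRCm38 (mm10). The matrices carry no gene names or barcode sequences. Rows were named by the gene order of the pooled tumour table of the series, whose row totals correlated with theirs at 0.954 to 0.984 (log scale, across genes, which are not independent), while displacing the rows by as many as 50 gave no more than 0.354. Shared barcodes could not be counted, and 0 cells had identical counts in both libraries. All barcodes together held 47843716 UMIs in the library of both antibodies and 93748407 in that of anti-PD1 alone.

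Counts of the T cells were summed per library and divided by their total (UMIs per 10000). Ratios have exact conditional binomial intervals, levels exact Poisson intervals and shares exact Clopper-Pearson intervals, at 95% confidence and for counting error only (Python 3.11.15, numpy 2.4.6, scipy 1.17.1, pandas 2.3.3). With 1 library per group no p-value was computed. Genes were compared at a mean of 0.1 or more UMIs per 10000, and at 1 or more in the 2 small gates and the replicate libraries. Those called higher or lower were 1.5-fold or more apart, and the procedure was tested on simulated data. The simulated data held counting error only, so that test does not bear on differences between cells, mice or libraries. Named genes were Pdcd1, Ctla4, Foxp3, Cd4, Cd8a, Icos, Ifng, Gzmb and Mki67, the 15 largest differences in each direction at a mean of 0.3 or more that agreed in sign between the CD8 and CD4 Foxp3-negative gates and were as high in T cells as in cells with no Cd3 UMI, and up to 4 members of each list past 1.5-fold. Other members were named after their values were seen. The cells compared, the gates and the 34 gene lists were chosen with earlier results of these data known. Of the other deposited data, the bulk samples were not used here, and 12 columns of bulk expression match no sample.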

Additional observations from a re-analysis of the deposited data

Results flagged for a closer look

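In 3 genes the CD8 gate and the CD4 Foxp3-negative gate moved past 1.5-fold in opposite directions, and this difference between the gates was not tested. Xcl1, a chemokine for dendritic cells, stood at 5.46 UMIs per 10000 with both antibodies and 8.30 with anti-PD1 alone in the CD8 gate (log2 ratio -0.60), and at 7.18 and 3.62 in the CD4 Foxp3-negative gate (0.99). Ccl4, an inflammatory chemokine, stood at 3.47 and 2.27 in the CD8 gate (0.61) and at 0.968 and 1.68 in the CD4 Foxp3-negative gate (-0.80). Hist1h1b, a linker histone gene of dividing cells, stood at 1.59 and 2.46 in the CD8 gate (-0.63) and at 1.63 and 0.957 in the CD4 Foxp3-negative gate (0.76).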

How the results depend on the processing

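No paired analysis was possible because each group has 1 library. In place of 317 higher and 196 lower genes, the counts were 1412 and 2256 with no limit on level, 97 and 37 at a limit of 0.5 UMIs per 10000, 31 and 43 at 2-fold, and 206 and 95 without genes at a higher level outside T cells, an alternative chosen after seeing the data. These settings change how many genes are compared or how large a difference is called. Lower genes numbered 343 with ribosomal and mitochondrial genes left out of the totals, 314 with cells thinned to 2000 UMIs and 299 with dividing cells left out. The smaller totals of the first of these settings also raise every level, so that more genes pass the limit on level. What moved the counts was not tested. The CD8 gate difference of 20.92 points was 25.50 after thinning and 16.32 with the gate at 1 or more UMIs. The Foxp3 gate difference of -5.09 points was -2.54 after thinning and -2.22 at 2 or more Foxp3 UMIs. Of the named genes 79 were past 1.5-fold, and each kept its direction under all the settings in which it was measured. With the gates weighted to equal shares 71 stayed past it, and Foxp3, Maf, Tnfrsf4, Got1, Tnfrsf18, Tmem176b, Trgv2 and Socs3 did not. Thinning left 69 past it and the omission of dividing cells 74. Other scalings moved the median gene to between -0.02 and 0.07. The spread between mice is not known for these libraries.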

Other observations

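The variable segments of the antigen receptor, which record which T cell clones are present, were counted poorly, since the kit reads the other end of the transcript. In the CD8 gate 729 UMIs fell in Trbv segments with both antibodies and 215 with anti-PD1 alone. Trbv2 took 34.2% of them with both antibodies and 11.2% with anti-PD1 alone, while Trbv29 took 17.6% and 19.5%. Of Trav segments there were 1217 and 363 UMIs. The most counted one was Trav6-7-dv9 with both antibodies, at 28.3%, and Trav16 with anti-PD1 alone, at 14.6%. Several Trav segments are near-copies of each other, and no comparison of clones was made.

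Il17a, below the level limit for the comparison, had 150 UMIs with both antibodies and 9 with anti-PD1 alone, a ratio of 9.82 (5.04 to 21.9). It was singled out after its values were seen. Il17f had 3 UMIs in each library. Il2, also below the limit, had 139 UMIs with both antibodies and 142 with anti-PD1 alone, a level of 0.036 against 0.062 UMIs per 10000.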
